A study of Saccharomyces cerevisiae with 12 samples.

Results

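Set4 is a protein of budding yeast with a SET domain and a PHD finger, related to Set3, the subunit that names a histone deacetylase complex. Genes near yeast chromosome ends are held at low levels by the Sir proteins and by histone deacetylases, and several families that lie there are switched on by stress or by lack of oxygen. The comparison described here asks what the loss of Set4 does to RNA levels in unstressed cells with oxygen. It is the part of the series that sets 3 libraries of set4Δ cells against 3 libraries of wild-type cells grown in air, read over every gene whose mean reached 10 normalized counts in one genotype or the other. That rule took in 5814 of the 5822 genes of the table. The other 8 genes could not be given a value in the third wild-type library, and among the 5814 no gene was lost to the minimum mean.

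Both strains are BY4741, a haploid laboratory strain of mating type a that carries the his3Δ1, leu2Δ0, met15Δ0 and ura3Δ0 alleles. In set4Δ cells the SET4 reading frame was replaced by the HIS3MX marker cassette. All 6 cultures were grown at 30°C in YPD, a rich glucose medium, to mid-log phase with oxygen, and total RNA was depleted of ribosomal RNA before stranded libraries were made. The same strains were also sequenced after 18 h in sealed anaerobic pouches, and those libraries are used below for the same contrast in separate cultures and for the difference between the effects in air and in hypoxia. The labels call the 3 libraries of a group replicates without saying whether they came from separate colonies, so that the p-values measure the spread between these libraries.

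The deposited values are read counts divided by a size factor, and the whole reads behind them could be recovered. The air libraries held 20158231 to 25948898 reads in the genes of the table, and the 10 most abundant genes took 23.9% to 25.9% of the normalized counts of a library. Libraries carry the numbers of the air table.

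The deleted gene is given first because it checks the labels. Wild-type libraries 1, 2 and 3 held 208, 226 and 167 normalized counts of SET4, which came from 246, 234 and 148 reads. The set4Δ libraries held 0, 4 and 0 reads, and a count of 0 allows up to 3 reads. Per library read, the set4Δ level was 0.671% of the wild-type level over the 3 libraries (exact 95% interval 0.182% to 1.73%, counting error only). The fitted log2 fold change, on log2 of the value plus 1, was -6.89 (SE 0.50, adjusted p = 6.1e-06 from limma with Benjamini-Hochberg adjustment over all genes tested). Its size depends on the number added before taking logs.

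The genes beside the deletion kept their levels within the spread of the libraries. PAM16, which encodes a subunit of the mitochondrial import motor, begins 589 bases beyond SET4 and had a log2 fold change of -0.01 (SE 0.06). IME2, a kinase gene of meiosis on the other side, also had -0.01 (SE 0.11), and YJL107C had 0.01 (SE 0.13).

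Besides SET4, limma called 2 genes in air, the seripauperin gene PAU24 as higher and the short reading frame YLR285C-A as lower in set4Δ cells. The 3 called genes are 0.0516% of those tested. At an unadjusted p of at most 0.05 stood 280 genes (4.82%), of which 100 were higher (1.72%) and 180 lower (3.1%). The 3 set4Δ values lay all above the 3 wild-type values in 263 genes (4.52%) and all below them in 320 genes (5.5%). Such groups, which do not overlap, are called apart below. These shares are the background against which the counts of gene lists are read below.

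**Figure D1:**
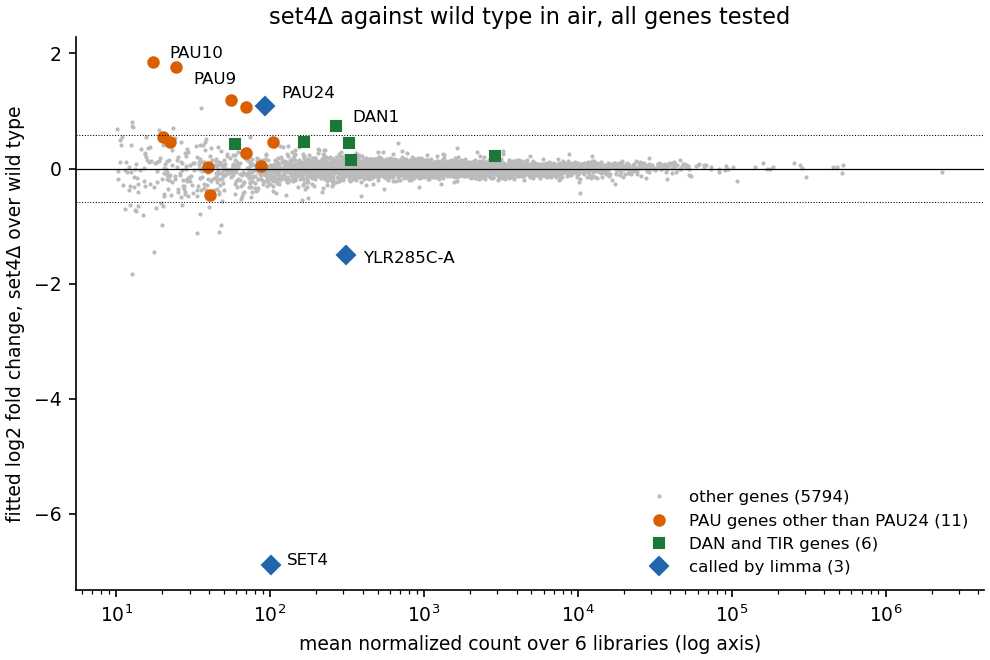
Fitted log2 fold change of set4Δ over wild type in air (vertical axis) against the mean normalized count over the 6 libraries (horizontal log axis), 1 point per gene, with dotted lines at a change of 1.5-fold. Most genes lie in a narrow band around 0, SET4 stands at -6.89 and YLR285C-A at -1.50, and most of the coloured PAU, DAN and TIR points lie above 0 at the left, where counts are low.

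PAU24, also named DAN3, encodes a small serine-rich mannoprotein of the seripauperin family and lies on chromosome II of the R64 assembly from 809057 to 809419, 3.77 kb from the right end. The wild-type libraries held 50.8, 57.1 and 70.0 normalized counts and the set4Δ libraries 154, 105 and 121. The lowest set4Δ value was thus above the highest wild-type value, and set4Δ library 1 was the highest of the 6. The log2 fold change was 1.08 (SE 0.18, 95% interval 0.70 to 1.45, adjusted p = 0.042 from limma). In this gene, 52.9% of the bases lie in words of 50 bases that occur elsewhere in the genome, and the sources used here do not say how reads that align to several places were counted. PAU24 lost its call with edgeR on the recovered reads (log2 fold change 1.10, adjusted p = 0.052) and without wild-type library 1, set4Δ library 1 or set4Δ library 3 (0.98, 0.93 and 1.10).

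YLR285C-A is a reading frame of 171 bases for a protein that R64 lists as uncharacterized. It lies on the minus strand of chromosome XII from 708168 to 708338, in the interval between the chitinase gene CTS1, 109 bases away on the same strand, and NNT1, 22 bases away on the opposite strand. The reading frame is shown because it is the called gene with the fewest bases, with its start and stop codons in capitals, from RefSeq R64.
YLR285C-A: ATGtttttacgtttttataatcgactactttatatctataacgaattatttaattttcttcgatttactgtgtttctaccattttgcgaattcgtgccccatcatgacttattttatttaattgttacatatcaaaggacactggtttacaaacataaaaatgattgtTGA

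The wild-type libraries held 352, 456 and 575 normalized counts of YLR285C-A and the set4Δ libraries 149, 240 and 112. The groups did not overlap, and each group spread by more than 1.5-fold within itself. The log2 fold change was -1.50 (SE 0.22, adjusted p = 0.015 from limma). Its neighbours did not share the change: CTS1, which is needed for daughter cells to separate, held 17361 to 18861 normalized counts in wild-type and 16160 to 18170 in set4Δ libraries (log2 fold change -0.08, SE 0.06), and NNT1, a methyltransferase gene, had 0.01 (SE 0.07). YLR285C-A lost its call without wild-type library 3 (-1.33, adjusted p = 0.051 from limma) and without set4Δ library 1 (-1.46), and with DESeq2 on the recovered reads (-1.46, adjusted p = 0.066).

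The DAN, TIR and PAU genes encode mannoproteins of the cell wall that cells make when oxygen is short, and in oxygen they are held down by repressors such as Rox1 and Mot3. The DAN and TIR proteins then take the place of other wall proteins, while the role of most PAU proteins is not known. The activators Upc2 and Ecm22 bind sterol response elements in some of their promoters, and DAN and TIR promoters also hold the activating element AR1. The bases from 350 to 51 before the start codon are shown for PAU24, PAU13, DAN1 and TIR4. They were chosen after the values were seen, as the called gene, a PAU gene from the PCR assays, the gene with the largest fold change among family members without repeated sequence, and the TIR gene with the largest fold change. They run 5′ to 3′ on the gene's strand from RefSeq R64. Capitals mark ATTGTT (core of the Rox1 site), TCGTATA (core of the sterol response element) and TCGTTNAG (AR1), searched on both strands.
PAU24 (II, 808707 to 809006, plus strand): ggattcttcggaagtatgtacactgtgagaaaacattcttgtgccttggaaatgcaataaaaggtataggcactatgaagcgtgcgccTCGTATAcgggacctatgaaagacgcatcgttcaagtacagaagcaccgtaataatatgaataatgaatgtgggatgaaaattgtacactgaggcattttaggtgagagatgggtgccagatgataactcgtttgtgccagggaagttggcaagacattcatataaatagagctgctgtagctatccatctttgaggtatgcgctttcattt
PAU13 (VIII, 12336 to 12635, minus strand): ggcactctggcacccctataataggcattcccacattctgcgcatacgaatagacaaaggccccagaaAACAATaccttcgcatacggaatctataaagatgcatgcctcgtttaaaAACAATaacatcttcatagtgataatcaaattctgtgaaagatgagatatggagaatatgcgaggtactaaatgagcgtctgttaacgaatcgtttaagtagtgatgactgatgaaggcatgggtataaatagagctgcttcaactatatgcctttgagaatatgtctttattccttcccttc
DAN1 (X, 709758 to 710057, minus strand): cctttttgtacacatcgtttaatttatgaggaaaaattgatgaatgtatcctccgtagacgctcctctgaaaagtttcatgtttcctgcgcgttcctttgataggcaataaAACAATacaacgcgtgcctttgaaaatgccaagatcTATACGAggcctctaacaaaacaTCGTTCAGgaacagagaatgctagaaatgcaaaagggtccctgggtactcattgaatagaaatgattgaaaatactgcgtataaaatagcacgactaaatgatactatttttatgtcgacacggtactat
TIR4 (XV, 343985 to 344284, plus strand): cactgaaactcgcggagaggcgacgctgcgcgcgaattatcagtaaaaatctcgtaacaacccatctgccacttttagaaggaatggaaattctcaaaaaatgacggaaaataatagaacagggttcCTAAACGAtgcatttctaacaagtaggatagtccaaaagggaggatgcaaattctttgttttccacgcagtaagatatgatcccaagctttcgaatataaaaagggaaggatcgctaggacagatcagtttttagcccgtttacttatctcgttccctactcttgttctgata

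In this window, DAN1 held all 3 motifs, PAU24 held the sterol response core, PAU13 held the Rox1 core at 2 places, and TIR4 held AR1. The core TCGTATA was found in 9 of the 18 DAN, TIR and PAU genes and in 4.49% of the 5810 genes with a window. TCGTTNAG was found in 5 of the 18, against 2.91%, and ATTGTT in 9 of the 18, against 33.5%. The letters are a description of the windows and no measure of binding.

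As a group, the 18 DAN, TIR and PAU genes lay above the rest in set4Δ cells at low levels of RNA. All 3 set4Δ values exceeded all 3 wild-type values in 12 of them, the reverse held in PAU6, and the groups of the other 5 overlapped. Their median log2 fold change was 0.47, against 0.0034 over all genes tested. At an unadjusted p of at most 0.05 were 11 higher and 1 lower, and PAU24 was the 1 that limma called. Of these genes, 9 lie within 40 kb of a chromosome end, while 5348 of all 5810 genes on nuclear chromosomes lie farther away. At least 50% of the length is repeated elsewhere in 6 of the 18, so that reads could pass between family members. The 18 are 12 of 24 listed PAU genes and 7 of 8 listed DAN and TIR genes, with PAU24 in both lists. The other listed members were not among the genes tested, so the counts do not cover the whole families.

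Of the 10 genes chosen for the largest higher values among those with groups apart and an unadjusted p of at most 0.05, 8 belong to these families. PAU10 held 6.77, 3.87 and 10.2 normalized counts in wild-type and 33.3, 15.1 and 34.9 in set4Δ libraries (log2 fold change 1.85, SE 0.44). PAU9 held 5.08, 19.3 and 10.2 against 45.5, 26.5 and 41.1 (1.76, SE 0.41). Both are repeated elsewhere over most of their length, 86.3% for PAU10 and all of PAU9, and neither reached 20 normalized counts in a wild-type library. PAU10 reached the minimum mean of 10 only through the set4Δ libraries, where it was high. It is counted among the 18 genes, the 12 apart and higher, the 11 at the unadjusted p, and the 8 here. The air medians of the 18 genes and of the 12 PAU genes also hold PAU10, and they were not taken without it.

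PAU13 held 37.2, 32.9 and 28.2 normalized counts in wild-type libraries and 110, 60.5 and 65.7 in set4Δ libraries (log2 fold change 1.20, SE 0.23). PAU5 held 33.0, 58.0 and 44.0 against 123, 76.6 and 84.2 (1.06, SE 0.23). PAU17 held 84.6, 99.6 and 80.1 against 133, 118 and 115 (0.47, SE 0.14). In these 3 genes set4Δ library 1 was the highest of all 6, and it was the highest set4Δ library in 9 of the 10 genes of the list.

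Among the DAN and TIR genes, DAN1, whose protein is a wall mannoprotein of anaerobic cells, held 153, 230 and 222 normalized counts in wild-type and 410, 294 and 306 in set4Δ libraries (log2 fold change 0.74, SE 0.15). It is unique in sequence and lies 36.0 kb from the right end of chromosome X. DAN4 held 138, 157 and 124 against 225, 178 and 179 (0.47, SE 0.13). TIR4 held 262, 293 and 272 against 456, 340 and 336 (0.44, SE 0.11).

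TIR2 was lower in level but even within groups, with 49.9, 49.3 and 50.8 normalized counts against 63.3, 68.1 and 71.9 (log2 fold change 0.43, SE 0.17). TIR1, whose protein is a cold-shock-induced mannoprotein, had the highest values of the families, 2599, 2917 and 2589 against 3113, 3174 and 3102 (0.21, SE 0.06). TIR3 overlapped between the groups, at 303, 363 and 296 against 381, 328 and 358 (0.15, SE 0.10). None of these DAN and TIR genes passed the adjusted threshold with limma, and DAN1 passed it with DESeq2 on the recovered reads (adjusted p = 0.0073). TIR2 and the PAU genes outside the 10 largest changes are named here to account for all members tested, after their values were seen.

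The other PAU genes did not move alike. PAU3 was higher in each set4Δ library (12.7, 22.2 and 14.7 against 23.3, 22.7 and 25.7 normalized counts, log2 fold change 0.54, SE 0.31), while PAU2, PAU7, PAU12 and PAU23 overlapped between the groups at fold changes of 0.27, 0.03, 0.46 and 0.05. PAU6, which is repeated over its whole length, held 44.9, 52.2 and 44.0 against 34.4, 30.3 and 37.0, a log2 fold change of -0.46 (SE 0.21). Without set4Δ library 1, the median of the 12 PAU genes was 0.51, as with it, and that of the 7 DAN and TIR genes was 0.36, against 0.44 with it.

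**Figure D2:**
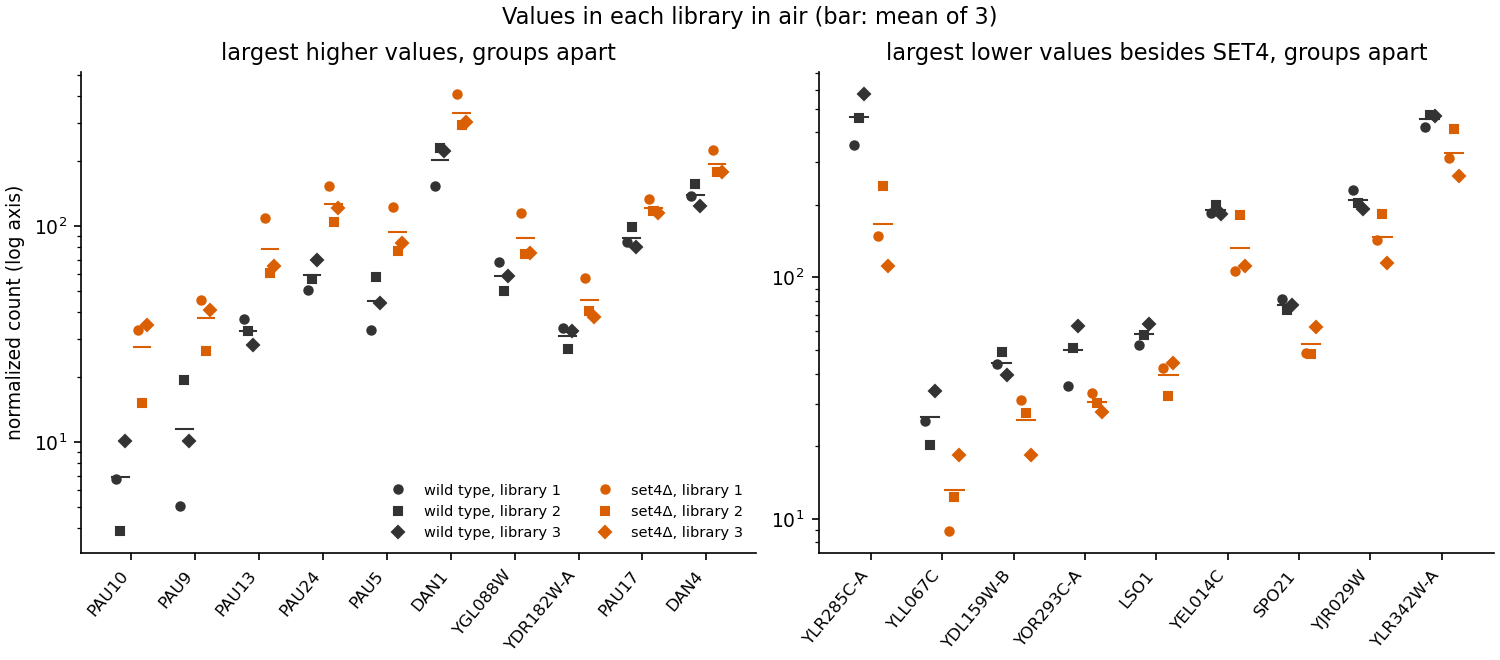
Normalized counts (vertical log axes) in each of the 3 wild-type (black) and 3 set4Δ (orange) libraries for the 10 genes with the largest higher fold changes (left) and for the 9 with the largest lower ones besides SET4 (right), with bars at the group means. These genes were chosen for groups that do not overlap, and set4Δ library 1 is the highest orange point in 9 of the 10 genes at the left.

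The other 2 of the 10 higher genes were YGL088W (68.6, 50.3 and 58.7 against 115, 74.7 and 74.9 normalized counts, log2 fold change 0.55, SE 0.20) and YDR182W-A (33.9, 27.1 and 32.7 against 57.7, 40.7 and 38.0, 0.51, SE 0.23). R64 notes that YGL088W overlaps the small nucleolar RNA gene of snR10 in part. In both, set4Δ library 1 again stood above the other set4Δ libraries.

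Of the 10 largest lower values, SET4 and YLR285C-A have been given. Reading frames under 300 bases are 5 of the 10, against 249 (4.28%) of all genes tested. Among such short genes fold changes were also more spread. YLL067C, a Y' element gene at the left end of chromosome XII, held 25.4, 20.3 and 33.9 normalized counts in wild-type and 8.88, 12.3 and 18.5 in set4Δ libraries (log2 fold change -0.98, SE 0.35), and 98.5% of its bases are repeated elsewhere. YDL159W-B (-0.79, SE 0.25), YOR293C-A (-0.66, SE 0.24) and LSO1 (-0.56, SE 0.20) held 18.5 to 64.3 normalized counts in every library. None of these passed the adjusted threshold.

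YEL014C fell short of it as well, with 185, 199 and 184 normalized counts against 107, 181 and 112 (log2 fold change -0.55, SE 0.17), so that set4Δ library 2 was close to the wild type. SPO21, which encodes a spindle pole component of meiosis, held 81.2, 73.5 and 76.8 against 48.8, 48.2 and 62.6 (-0.54, SE 0.17). YJR029W, a Ty element reading frame that is repeated over its whole length, had -0.52 (SE 0.15). YLR342W-A, 182 bases from the glucan synthase gene FKS1, had -0.48 (SE 0.13), and FKS1 itself had -0.06 (SE 0.06).

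The remaining genes give the precision of the comparison. The 95% interval of the log2 fold change lay inside a change of 1.5-fold either way for 5530 genes (95.1%) and inside 2-fold for 5736 (98.7%). For 284 genes a change of 1.5-fold was not excluded, and their median level was 35.8 normalized counts, against 1038 for the others. Of 375 genes with a mean under 100, the interval excluded 1.5-fold for 132, and of 347 genes with a mean over 10000 for 345.

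Fitted changes beyond 1.5-fold were found in 33 genes, 13 higher and 20 lower, of which 18 had groups that did not overlap. Changes beyond 2-fold were found in 12 genes, 6 in each direction. Below 100 normalized counts the median standard error was 0.23, and above 1000 it was below 0.06, so that most of the large fitted changes come from genes of few reads.

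Of 50 gene lists, which do not include the 2 lists added after the values had been seen, 45 had at least 3 genes tested, and the medians of 41 lay between -0.1 and 0.1. The 2 above were the PAU genes and the DAN and TIR genes, and the 2 below were the COS genes and the Y' helicases. In the hypoxia libraries the medians were 1.09 for 11 PAU genes, 0.67 for DAN and TIR, 0.12 for COS and 0.18 for Y' helicases. The 2 lists below thus did not keep their direction there. In the lists the groups were read against the background of 4.52% of all genes apart and higher and 5.5% apart and lower.

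**Figure D3:**
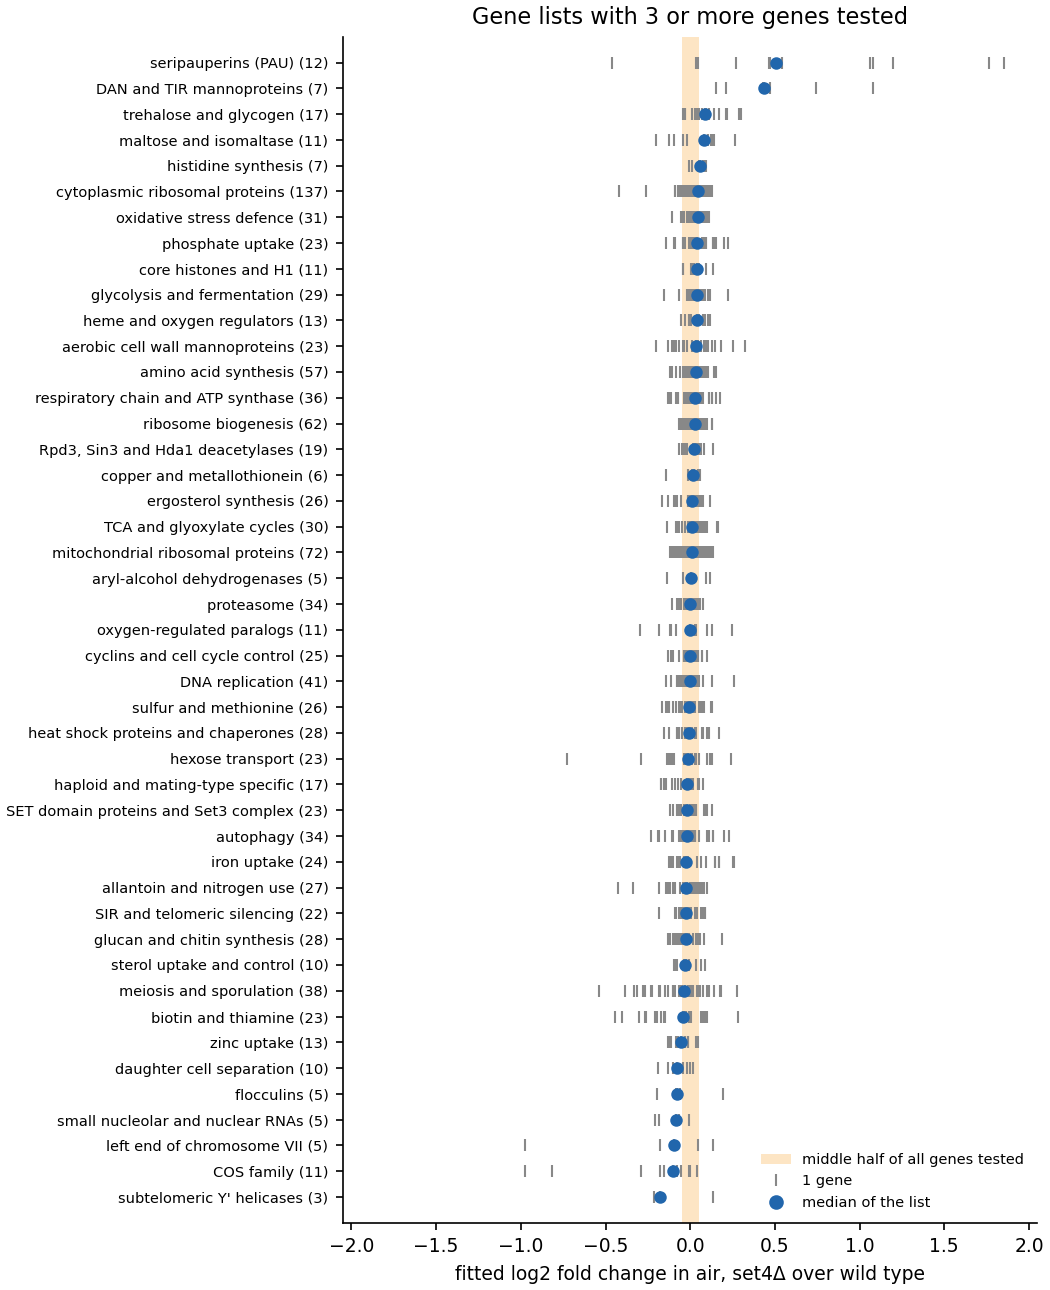
Fitted log2 fold change in air of each tested member (ticks) of 45 gene lists and the median of each list (blue points), with the number of genes in parentheses and the interquartile range of all genes shaded. The PAU, DAN and TIR medians stand at 0.51 and 0.44, and the medians of the other lists lie between -0.18 and 0.09.

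The other genes of the cell wall stayed close to the wild type. Of 23 wall mannoproteins of aerobic cells, 4 were apart and lower and 0 apart and higher, against 5.5% and 4.52% of all genes. None was called, and the median was 0.04. The 4 lower were CRR1 at -0.20 (SE 0.09), CRH1 at -0.09 (SE 0.05), PST1 at -0.08 (SE 0.05) and TIP1 at -0.07 (SE 0.05). CRH1, PST1 and TIP1 were named after their values were seen. CCW12, the most abundant of the 23, held 154203, 154076 and 151896 normalized counts in wild-type and 153847, 171546 and 166786 in set4Δ libraries (log2 fold change 0.10, SE 0.08). CWP2 had 0.18 (SE 0.08) and PIR3 0.32 (SE 0.14), and both overlapped between the groups. All 28 genes of glucan and chitin synthesis excluded a change of 1.5-fold, with a median of -0.03, and GAS1, a glucan-remodelling enzyme, was lower in each set4Δ library at -0.13 (SE 0.07).

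Sterol and oxygen control showed the same narrow range. All 26 genes of ergosterol synthesis excluded a change of 1.5-fold, with a median of 0.01. ERG3, a desaturase gene, held 14183, 14650 and 16164 against 15270, 14061 and 14004 normalized counts (log2 fold change -0.05, SE 0.06), and ERG11, the demethylase that azole drugs inhibit, had -0.08 (SE 0.06). The 13 regulators of the response to heme and oxygen also all excluded 1.5-fold, and 3 of them were apart and higher, against 0 apart and lower. These were MOT3 at 0.11 (SE 0.06), HAP2 at 0.12 (SE 0.07) and CYC8, which encodes a corepressor, at 0.09 (SE 0.05), none called. Of 11 genes of heme synthesis and of paralogs whose use depends on oxygen, 3 were apart and lower and 1 apart and higher. AAC1 and AAC3, which encode ADP/ATP carriers, had -0.29 (SE 0.10) and -0.19 (SE 0.08), HEM14, a gene of heme synthesis, had -0.12 (SE 0.07), and HYP2, the aerobic form of eIF5A, had 0.13 (SE 0.05). None of the 11 was called.

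The machinery of silencing did not change beyond these limits. Of 22 genes for the Sir proteins and telomere factors, 22 excluded a change of 1.5-fold, and so did 19 of 19 genes of the Rpd3, Sin3 and Hda1 deacetylases, 23 of 23 genes of SET domain proteins and the Set3 complex, and 11 of 11 histone genes. Their medians were -0.02, 0.02, -0.02 and 0.04. RAP1, which binds telomeres and ribosomal protein promoters, held 3512, 3593 and 3796 against 3812, 3963 and 3821 normalized counts (log2 fold change 0.09, SE 0.05). HMRA1, a gene at the silent mating locus, was lower in each set4Δ library, at 723, 653 and 666 against 577, 590 and 586 (-0.22, SE 0.07, not called), and cells of mating type a carry the same gene at the active mating type locus, so that reads of both copies cannot be told apart.

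Lists of growth and metabolism were read next. Of 137 cytoplasmic ribosomal protein genes, 12 were apart and higher and 2 apart and lower, with a median of 0.05, and all but 1 excluded a change of 1.5-fold. The 2 lower were RPL41A (log2 fold change -0.26, SE 0.07) and RPL41B (9227, 11559 and 14827 against 9214, 9026 and 7915 normalized counts, -0.42, SE 0.12), a near-identical pair with the shortest coding sequence among these genes. Of 31 genes of oxidative stress defence, all excluded 1.5-fold, with a median of 0.04. Heat shock proteins, glycolysis, the TCA cycle, the respiratory chain, the proteasome and amino acid synthesis had medians between -0.01 and 0.04.

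After the PAU, DAN and TIR genes, the trehalose and glycogen genes had the highest median of these lists, 0.09, and none of the 17 had groups apart. Their values followed single libraries of both genotypes: PGM2 held 2862, 4061 and 1990 normalized counts in wild-type and 2826, 4121 and 3708 in set4Δ libraries, and GPH1 held 1926, 2740 and 1360 against 1850, 3034 and 2329. In both genes wild-type library 3 was the lowest and library 2 of either genotype was high.

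Genes of meiosis are kept off in haploid cells in rich medium, and they were at low levels here. Of 38 tested, 5 were apart and lower and 0 apart and higher, with a median of -0.04. IME1, the main activator of meiosis, held 126, 124 and 107 normalized counts in wild-type and 95.5, 86.1 and 90.3 in set4Δ libraries (log2 fold change -0.39, SE 0.13). SPO75 held 499, 500 and 537 against 440, 460 and 374 (-0.28, SE 0.09). None of the 38 was called.

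Genes for the separation of daughter cells had a median of -0.08 over 10 genes. DSE4, a glucanase gene, held 10880, 10899 and 11387 normalized counts against 10315, 9596 and 9218 (log2 fold change -0.19, SE 0.05) and was not called. Of 17 genes specific to haploid cells or to a mating type, 1 was apart and lower and 0 apart and higher, with a median of -0.02. At an unadjusted limma p of at most 0.05 were 4 lower and 0 higher, against 3.1% and 1.72% of all genes. These were STE2, BAR1, STE6 and GPA1, the last at -0.16 (SE 0.06) and named after its values were seen. The a-specific genes did not move alike: the receptor gene STE2 had -0.17, the protease gene BAR1 -0.17 and the exporter gene STE6 -0.14, while the pheromone genes MFA1 and MFA2, named after their values were seen, had 0.05 and 0.05, and none was called.

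A list of genes controlled by the drug resistance regulators Pdr1 and Pdr3 was added after the values had been seen, so that its counts are a description. Of 15 genes, 6 were apart and lower and 0 apart and higher, with a median of -0.13. PDR5, the main drug efflux pump, held 112768, 117112 and 119474 normalized counts in wild-type and 104064, 101663 and 95253 in set4Δ libraries (log2 fold change -0.22, SE 0.07). SNQ2 had -0.16 (SE 0.05), PDR15 -0.21 (SE 0.06) and LAC1, a ceramide synthase gene, -0.18 (SE 0.05). Of the 6, 4 are transporters of at least 4000 bases. In the hypoxia libraries the median of the 15 genes was 0.05, and 1 was called higher by limma.

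Fold changes also ran with gene length. Of 233 genes of at least 4000 bases, 25 were apart and lower and 0 apart and higher, with a median of -0.03. Of 2035 genes of 300 to 1000 bases, 63 were apart and lower and 153 apart and higher, with a median of 0.02. The long genes stood lowest in set4Δ library 3, at a median deviation of -0.05 from the gene's mean, and highest in wild-type library 1, at 0.03. The part of length in the values of the drug pumps and of the cytoplasmic ribosomal protein genes was not tested.

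Fold changes were read by place on the chromosomes. The medians of the 16 chromosomes lay between -0.0021 and 0.0074, so that no chromosome as a whole was higher or lower. Within 10 kb of an end, 81 genes had a median of -0.06 and a median size of change of 0.14, at a median standard error of 0.15. Beyond 40 kb, 5348 genes had a median of 0.0045, a median size of 0.05 and a median standard error of 0.07.

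**Figure D4:**
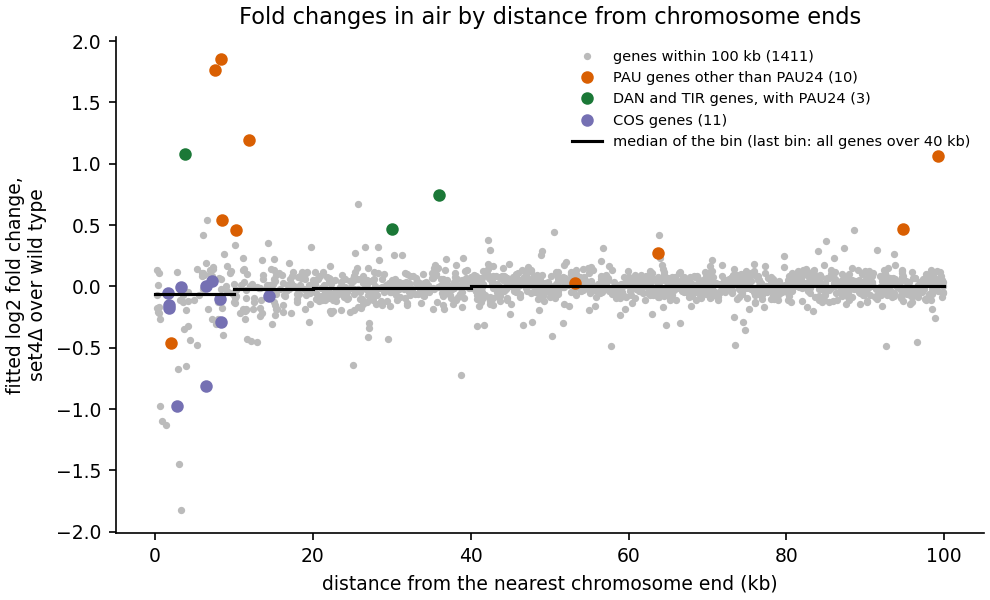
Fitted log2 fold change in air against the distance from the nearest chromosome end (horizontal axis, kb) for genes within 100 kb, with the PAU, DAN, TIR and COS genes coloured and black lines at the bin medians. The scatter widens toward the end, with PAU genes at up to 1.85 and COS genes at down to -0.98, while the medians stay between -0.06 and 0.0045.

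Of 81 genes under 10 kb from an end, 5 were apart and higher and 8 apart and lower, against 4.52% and 5.5% of all genes. At an unadjusted limma p of at most 0.05 were 3 higher and 12 lower, against 1.72% and 3.1% of all genes. The 32 chromosome ends, each taken over 40 kb, had medians from -0.11 at the right end of VIII to 0.05 at the right end of X. Of these medians 30 lay between -0.1 and 0.1 and 2 below, and 22 of the 32 were below 0. The genes nearest the ends had fewer reads, with a median of 116 normalized counts under 10 kb and 1014 over 40 kb.

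The COS genes, a subtelomeric family of membrane proteins, had a median of -0.10 over 11 genes, of which 0 were apart and higher and 2 apart and lower. COS12, 2.79 kb from the left end of chromosome VII, held 91.4, 36.8 and 66.6 normalized counts in wild-type and 38.9, 36.9 and 19.5 in set4Δ libraries (log2 fold change -0.98, SE 0.32). Wild-type library 2 lay inside the set4Δ range, so that the groups overlapped and the gene was not called. YPS5, a protease gene of the same end, had -0.18 (SE 0.28), with 33.9, 21.3 and 37.2 against 21.1, 30.3 and 28.7. Of the 11 genes taken from the study's PCR assays, 7 were tested here, and YGL262W, PAU11, PAU21 and PAU22 were not.

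At the left end of chromosome VI, a stretch singled out after its values were seen, YFL067W, YFL066C, YFL065C, YFL064C and COS4 had fold changes from -0.82 to -1.83. Their summed values were 254.8, 217 and 70.0 in wild-type and 96.6, 42.6 and 71.9 in set4Δ libraries. Wild-type library 3 was the lowest wild-type library in all 5 genes and stood within the set4Δ range of the sum. These genes are repeated elsewhere over at least 71.8% of their length, and none was called. In the hypoxia libraries the 5 genes had fold changes from -0.30 (COS4) to -1.84 (YFL066C), and YFL066C, at 106, 187 and 157 normalized counts in wild-type and 41.0, 31.9 and 49.0 in set4Δ libraries, was called there (adjusted p = 0.029 from limma).

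Libraries of the same strains in hypoxia give the same contrast in cultures not used above. There, limma called 71 of 5875 genes (1.21%). Of the 10 largest higher genes in air, 9 were in that table (all but PAU10) and 9 had a positive fold change in hypoxia, with a median of 1.09, and PAU24 and DAN4 were called there. Of the 10 largest lower genes, 9 were in the table (all but SET4 itself) and 8 had a negative fold change, with a median of -0.15 and 0 called. Over all 5803 genes of both tables, 2788 were positive in hypoxia, and across genes, which are not independent, Pearson's r between the 2 fold changes was 0.14, or 0.03 over the 5437 genes whose mean in air was 100 or more.

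**Figure D5:**
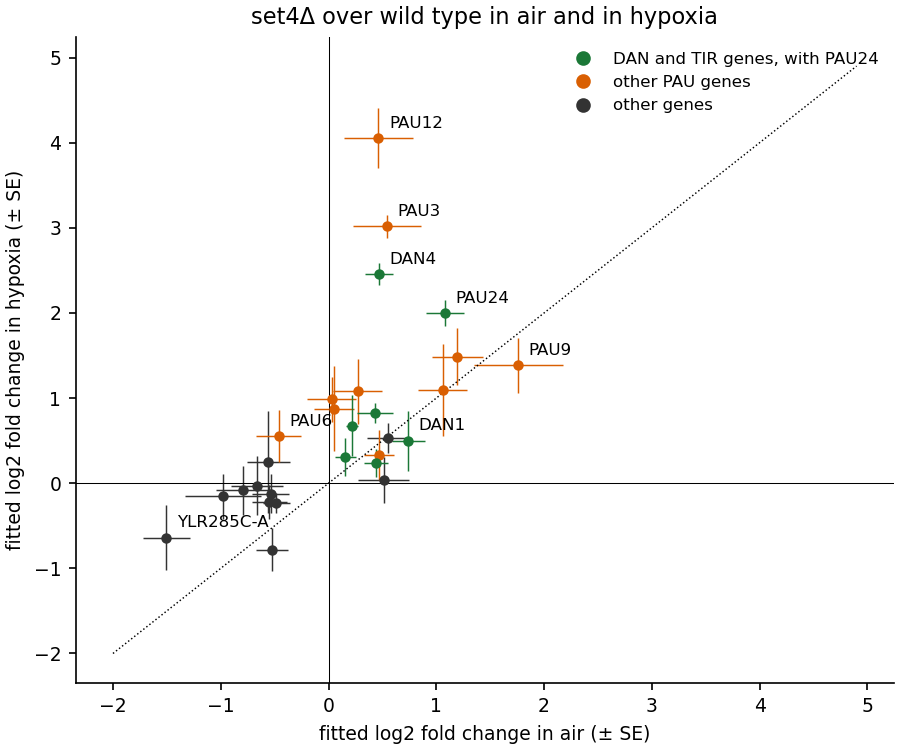
Fitted log2 fold change of set4Δ over wild type in air (horizontal) and in hypoxia (vertical) with standard errors, for the PAU, DAN and TIR genes and the 10 largest changes each way that both tables hold, and a dotted line of equal change. PAU12, PAU3, DAN4 and PAU24 lie above the line, and YLR285C-A lies at -1.50 and -0.64.

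PAU24 rose in both conditions, with a log2 fold change of 1.08 in air and 2.00 in hypoxia (adjusted p = 0.0019 from limma), and the difference of the 2 effects did not pass the test (0.87, adjusted p = 0.11 from edgeR on the recovered reads of 12 libraries). DAN4 had 0.47 in air and 2.46 in hypoxia, and the effects differed by 1.99 (adjusted p = 0.00052 from edgeR), as they did for 79 of 6023 genes (1.31%). PAU13 and PAU9 had 1.49 and 1.38 in hypoxia, against 1.20 and 1.76 in air. YLR285C-A had -0.64 in hypoxia (adjusted p = 0.54 from limma), and its effects did not differ beyond the test (adjusted p = 0.58 from edgeR).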

How the data were processed

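RNA was sequenced from 12 cultures, of which the 6 grown in air give the main comparison. Per the labels and the methods, the authors used Trimmomatic 0.36 for trimming, STAR 2.5.2b for alignment and featureCounts (Subread 1.5.2) for counting by gene, and then divided counts by DESeq2 size factors. The deposited values are therefore a normalized signal, comparable between the libraries of 1 table. The sources used here do not give the genome build, the strand setting or how multiply aligned reads were handled. The tables also hold the authors' log2 fold changes, p-values, adjusted p-values and local FDR, which were not used. All values of the 24 library columns (100%) were whole multiples of 1 read within 0.02 reads, which gave the reads per library. The third wild-type column of the air table held 5825 values beside 5822 genes, so that it was taken from another table, which held 99.9% of its values, after scaling by 1.04.

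Genotypes were compared with limma 3.58.1 (R 4.3.3) on log2 of the value plus 1, with a mean variance trend, a minimum mean of 10 in either group, Benjamini-Hochberg adjustment over 5814 genes and a threshold of 0.05. Tests were tried on simulated data. Gene positions, for 5811 genes, are those of RefSeq R64. Alternatives were other pseudocounts, filters and scalings, robust estimation, a replicate block, the local FDR, each library left out and, chosen after the data were seen, edgeR 4.0.16 and DESeq2 1.42.0 on the recovered reads. edgeR called 2 genes and DESeq2 called 9. Named genes were SET4 and its neighbours, all called genes, the 10 largest changes each way among genes with groups apart and an unadjusted p of at most 0.05, genes the study measured by PCR, and in each list the 2 highest by level and up to 3 with the smallest p. Members and lists were chosen with earlier results of these data known, and the lists of drug resistance genes and of the left end of chromosome VI after their values were seen. Intervals on reads cover counting error only.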

Additional observations from a re-analysis of the deposited data

Results flagged for a closer look

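For 10 of the genes named, the effect of the deletion in air differed from that in hypoxia in an interaction test (edgeR 4.0.16 on the recovered reads of 12 libraries, Benjamini-Hochberg adjustment over 6023 genes). Over all 6023 genes the effects differed for 79 (1.31%), and 53 of these differences were positive. Values are log2 differences, hypoxia minus air. Among the wall protein genes that cells make without oxygen, the difference was 1.99 for DAN4 (0.47 in air, 2.46 in hypoxia, adjusted p = 0.00052), 4.66 for PAU10 (1.99 and 6.66, adjusted p = 0.0069), 3.62 for PAU12 (0.47 and 4.09, adjusted p = 0.040) and 2.49 for PAU3 (0.53 and 3.02, adjusted p = 0.0037). In hypoxia PAU10 held 37, 35 and 55 reads in wild-type and 5965, 4449 and 3804 in set4Δ libraries. Most of its length is repeated elsewhere, and it has no limma value in hypoxia. Whether reads passed between PAU genes was not tested.

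Of the 23 mannoprotein genes of aerobic walls, the effects differed for 6, against 1.31% of all genes in the test, with 5 differences negative and 1 positive. Among those named, CCW12 differed by -1.53 (0.10 in air, -1.44 in hypoxia, adjusted p = 0.0006 from edgeR), and CWP2 by -2.16 (0.19 and -1.97, adjusted p = 0.0006 from edgeR).

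The sterol reductase gene ERG4 differed by 1.47 (-0.13 in air, 1.34 in hypoxia, adjusted p = 6.8e-05 from edgeR). IME2, beside the deletion, differed by 1.44 (0.00 and 1.44, adjusted p = 0.0013). ASH1, a repressor gene of daughter cells, differed by -0.59 (-0.02 and -0.61, adjusted p = 0.040), and MAC1, a copper-sensing activator gene, by 0.45 (0.06 and 0.51, adjusted p = 0.034).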

How the results depend on the processing

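limma called 3 genes in air, 1 with quantile normalization and 1 to 7 when a library was left out (7 without wild-type library 2, 6 without set4Δ library 2 and 1 without set4Δ library 1). DESeq2 called 9, edgeR 2, and a local FDR 193 (70 higher, 123 lower). A local FDR is the kind of test the study used for this comparison. It rests on the fold changes alone and takes no account of the spread between replicates, so that its count is not like the others. The call of PAU24 in air was lost at a minimum mean of 50 (1.08, adjusted p = 0.061), equal totals (1.08, adjusted p = 0.067), quantile normalization (1.12, adjusted p = 0.15) and edgeR (1.10, adjusted p = 0.052), and ran from 0.93 to 1.20 over the libraries left out. The call of YLR285C-A in air was lost with quantile normalization (-1.49, adjusted p = 0.15), robust estimation (-1.50, adjusted p = 0.95) and DESeq2 (-1.46, adjusted p = 0.066), and ran from -1.80 to -1.25. SET4 stayed called, from -7.64 to -6.51 over the libraries left out. The cause of these losses was not tested. No called value changed direction.

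With libraries left out, 4 to 8 lists had medians beyond 0.1 either way, against 4 with all libraries, the DAN and TIR median ran from 0.36 to 0.51, the PAU median from 0.44 to 0.66, and 5454 to 5496 genes excluded a change of 1.5-fold. Equal totals moved the genes whose groups do not overlap from 263 higher and 320 lower to 249 and 243. With the replicate number as a block, 3 genes were called, among them PAU24 (1.08) and YLR285C-A (-1.50), and PAU13 had 1.20. Deviations of same-numbered libraries correlated at 0.02, 0.23 and -0.28 over 5439 genes, and those of other pairs from -0.35 to 0.30. Same-numbered libraries thus did not stand out. Deviations from a mean of 3 libraries depend on one another, so that these values cannot decide whether the cultures were paired. Genes under 100 normalized counts limit the comparison.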

Other observations

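Tables of the hypoxia responses hold genes outside the air table, and 158 of them could be compared in air on recovered reads. They were fitted with edgeR together with genes of the air table, and the Benjamini-Hochberg adjustment ran over all 5970 genes of that fit. Of the 158, 0 were called after this adjustment. At an unadjusted p of at most 0.05 were 17, of which 7 were lower. An adjustment over the 158 alone was not made. A separate edgeR fit to the genes of the air table put 282 of 5814 at that p, so the 17 are a larger share. Among 80 small nucleolar RNAs, most of which guide modification of ribosomal RNA, 7 were lower and 5 higher at that p, with a median log2 fold change of -0.01. Values of these RNAs are recovered reads scaled by the library sizes of edgeR, which is not the scale of the normalized counts above. snR47 held 589, 606 and 599 scaled reads in wild-type and 421, 457 and 360 in set4Δ libraries, a log2 fold change of -0.53 (adjusted p = 0.078 from edgeR). snR80 held 2870, 4369 and 5251 against 2026, 2355 and 929 (-1.23), with the lowest value in set4Δ library 3. On the higher side, snR128 had 0.61, snR40 0.62 and snR55 0.64, and in snR128 and snR55 set4Δ library 1 was well above the others. These RNAs were named after their values were seen.

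Of the genes DESeq2 called and limma did not, 3 lie outside the families described and were named after their values were seen. FRE7, a metal reductase gene, held 963, 1020 and 1129 normalized counts in wild-type and 866, 807 and 804 in set4Δ libraries (log2 fold change -0.33). YCR024C-B had -0.24 and lies 79 bases from PMP1 on the same strand, which had -0.20. YCL042W had 0.45 and overlaps 106 bases of GLK1 on the same strand, which had 0.12.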
